A study of Mus musculus with 2 samples.

Results

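The transcripts described here are those of the heterotrimeric G proteins and of the regulators of G protein signaling (RGS proteins) in the CE1-4 line of mouse prostate cancer cells. The members were chosen by name and not by their values, with earlier results of these data known. They were 42 gene symbols of the 23420 in the count table: 12 alpha, 5 beta and 7 gamma subunits and 18 RGS genes. All 42 symbols had a row. The untreated group was 1 library of CE1-4 cells, and the other group was 1 library of the same line after 6 h with PGE-2 (prostaglandin E2, PGE2). The labels give no genotype, dose or vehicle for either group and no time in culture for the untreated cells, so vehicle, time and PGE2 cannot be told apart. Stranded total RNA libraries were read to 16908429 counts untreated and 17582808 counts treated. With 1 library per group no difference below has a replicate check and no p-value is given. Whether fewer transcripts come from fewer expressing cells or from less RNA per cell cannot be told apart in such bulk libraries.

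A heterotrimeric G protein couples a receptor to its effectors. The alpha subunit binds GTP when the receptor is occupied and parts from the beta-gamma dimer, and each part of the complex then acts on its own targets: Gs raises cAMP, Gi lowers it, Gq and G11 activate phospholipase C-beta, and G12 and G13 activate exchange factors of small GTPases. RGS proteins end the signal by speeding GTP hydrolysis on alpha subunits, mostly those of the Gi and Gq families. PGE2 receptors use several of these routes, with EP2 and EP4 coupled to Gs, EP3 to Gi and EP1 to Gq. Ptger4, which encodes EP4, had 431 and 492 counts in the untreated and treated libraries, Ptger1 25 and 30, Ptger2 1 in each and Ptger3 none.

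The label of the line was checked on marker genes. In untreated cells Krt8 and Krt18, keratin genes of luminal epithelium, reached 1256 and 758 CPM (counts relative to library size), and the prostate transcription factor gene Hoxb13 was at 15.8 CPM. The prostate secretory gene Pbsn had 0 counts in both libraries. A count of 0 leaves room for 3 counts, or 0.178 CPM in the untreated and 0.170 CPM in the treated library. Vim, a mesenchymal filament gene, was at 2029.6 CPM. Of the leukocyte genes Cd3e had 0 counts in both libraries and Ptprc 0 and 1, while Cd68, a macrophage gene, had 70 and 66. Of the endothelial genes Cdh5 had 0 counts in both and Pecam1 0 and 3. Hbb-b1 of erythroid cells had 0 in both, and Pf4 of platelets 1 and 0. Krt8, Krt18 and Vim differed little between the libraries, with log2 ratios of 0.02, 0.04 and 0.05. The mesenchymal genes Fn1 and Cdh2 lay on the other side, at -0.06 (-0.12 to 0.0038) and -0.06 (-0.12 to -0.0047).

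Of the 42 members, 35 had at least 1 count and 27 reached 1 CPM in at least 1 library, the level at which ratios were read. Of all rows deposited, 48.6% reached it. These 27 were 9 of 12 alpha, 4 of 5 beta, 5 of 7 gamma and 9 of 18 RGS genes. The cells thus held transcripts of all 4 alpha families, several beta and gamma subunits and part of the RGS genes. To compare genes, CPM was divided by the kilobases covered by all annotated exons of the gene (union exon length). On that scale the summed levels in untreated cells were 267 CPM per kb for alpha, 110.0 for beta, 123 for gamma and 34.5 for RGS genes. Without length they were 1363, 467, 321 and 125 CPM in the same order. Whether beta or gamma comes higher thus depends on the length used.

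**Figure D1:**
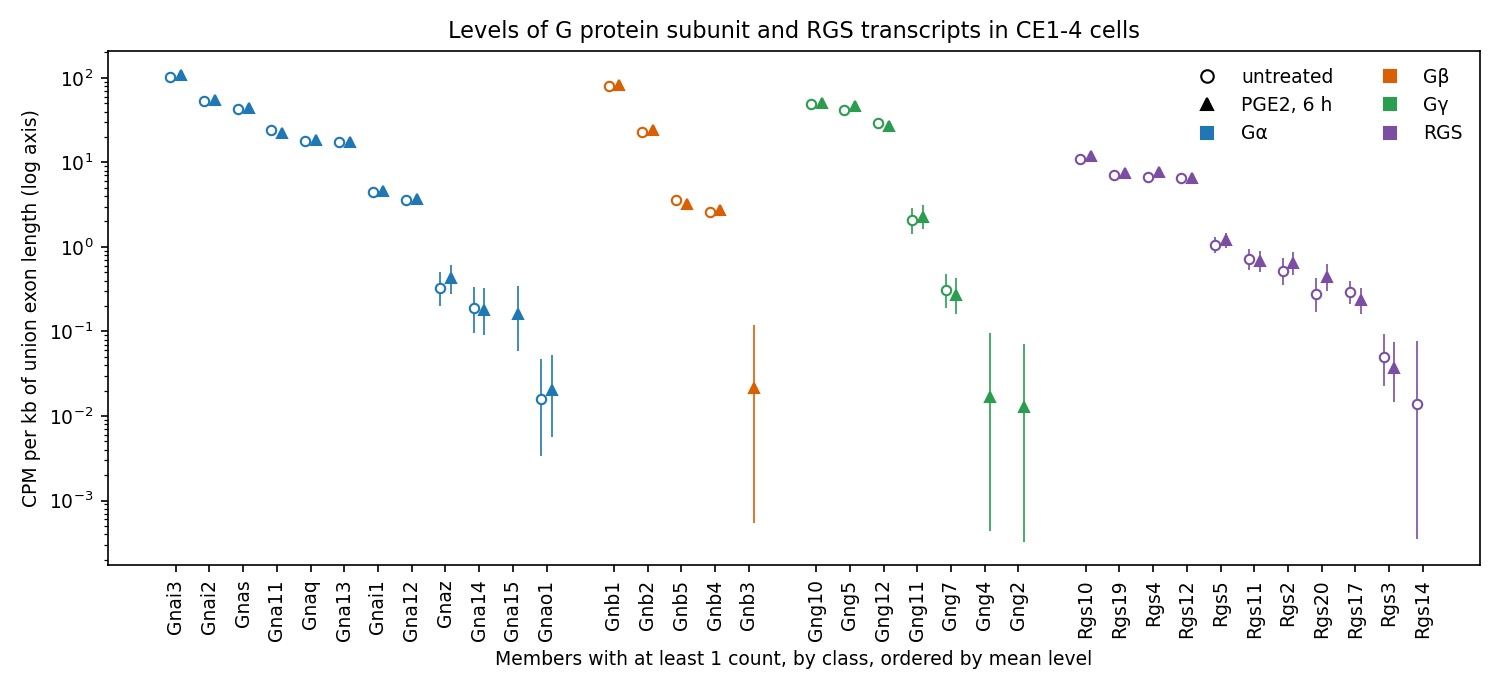
Level of each of the 35 members with at least 1 count, in CPM per kb of union exon length on a log axis, by class and ordered by mean level; circles are the untreated and triangles the PGE2 library, bars are 95% Poisson intervals of the count, and a library with 0 counts has no point. Gnai3, Gnb1, Gng10 and Rgs10 lead their classes on this scale, and the highest RGS level (Rgs10, 11.1 untreated) lies below the levels of 6 alpha genes.

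Between the libraries the members lay close together. None of the 27 tested members passed the size rule, a ratio of at least 2-fold with a 95% counting interval that excludes 1, against 0.307% of the 11387 tested genes. An interval that excluded 1 was found for 4 members, against 12.3% of tested genes. It lay above 1 for 2 members, Gnai3 and Gng5, against 6.61% of tested genes, and below 1 for 2 members, Gna11 and Gng12, against 5.65%. The interval lay wholly within 2-fold on either side for 22 of the 27, and for 92.4% of all tested genes. The ratio was above 1 for 20 members and below 1 for 7, where 49.4% of all tested genes lay above 1. The median log2 ratio of the members was 0.04, beside -0.0014 over all tested genes, which were not matched for counts.

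Abundant genes have narrow intervals and exclude 1 more readily, so the calls were also read against genes of like counts. The 3 members whose counts over both libraries came to 10000 or more, Gnas, Gnai3 and Gnb1, gave 1 interval above 1 and none below, where 33.4% and 12.9% of such genes had one. Among the 6 members with 3000 to below 10000 counts there was 1 interval above 1 (14.2% of such genes) and there were 2 below (6.47%). No interval of the 18 members with fewer counts excluded 1, where 8.1% of such genes had one that did.

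**Figure D2:**
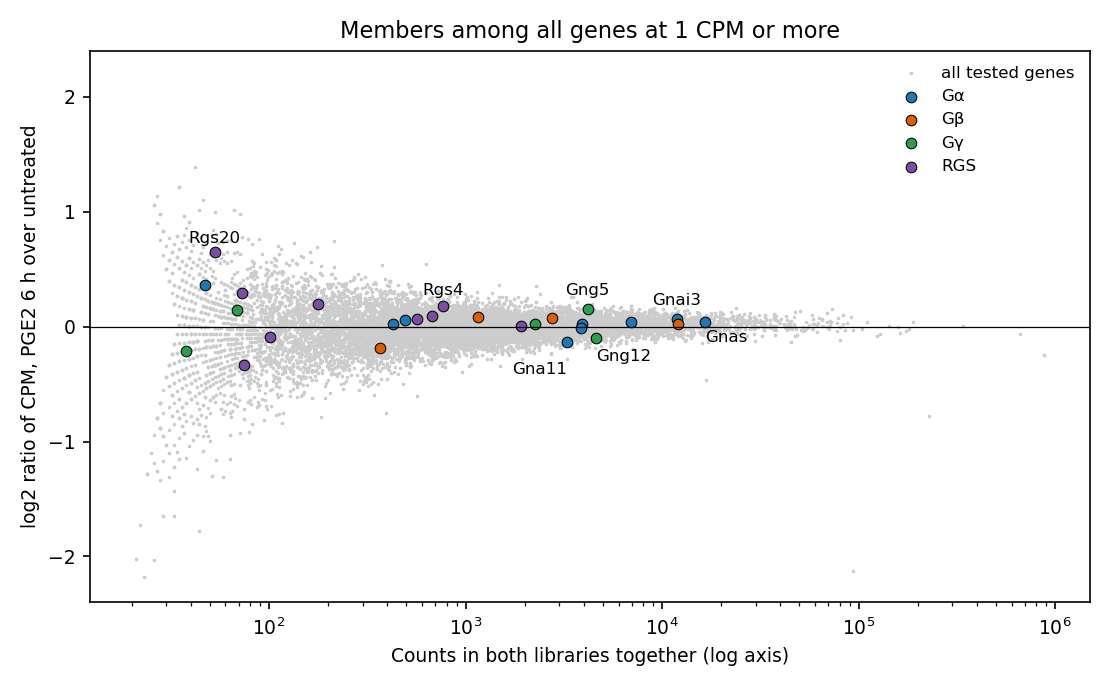
Log2 ratio of CPM (PGE2 6 h over untreated) against counts in both libraries together (log axis) for the 11387 tested genes in grey and the 27 tested members in colour by class. The members lie within the grey cloud, wide at low counts (Rgs20 at 0.65) and narrow at high counts (Gnas at 0.04).

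The only Gs member, Gnas, encodes the alpha subunit that stimulates adenylyl cyclase and lies in an imprinted locus with several first exons (chromosome 2, 174284320 to 174346744, plus strand, GRCm38). It had the most counts of any member, 8012 untreated and 8592 treated. These were 475 CPM untreated (465 to 486) and 487 CPM treated (477 to 498), and the log2 ratio was 0.04 (-0.0075 to 0.08). Its level was therefore nearly the same in both libraries.

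The Gi family, whose members inhibit adenylyl cyclase, was led by Gnai3 and Gnai2. Gnai3 (chromosome 3, 108107280 to 108146146, minus strand) had 5663 and 6213 counts, 336 CPM untreated (327 to 345) and 352 CPM treated (344 to 361), with a log2 ratio of 0.07 (0.02 to 0.12). Gnai2 (chromosome 9, 107614125 to 107635367, minus strand) had 3363 and 3605 counts, 199 and 204 CPM, with a log2 ratio of 0.04 (-0.03 to 0.10). Gnai3 was thus slightly higher in the treated library by counting error alone, while the interval of Gnai2 included 1. Once widened by the spread that genes of like counts show beyond counting error, the interval of Gnai3 ran from -0.04 to 0.18 and included 1 as well. Gnai1 was far scarcer, with 235 and 255 counts and a log2 ratio of 0.05 (-0.21 to 0.32). Gnaz, a subunit of neurons and platelets that resists pertussis toxin, was near the limit with 20 and 27 counts. Gnao1, the abundant alpha subunit of brain, had 3 and 4 counts.

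The Gq family was represented by its widely expressed members. Gnaq (chromosome 19, 16132831 to 16387463, plus strand) had 1890 and 2011 counts, 112 and 114 CPM, and a log2 ratio of 0.03 (-0.07 to 0.12). Gna11 (chromosome 10, 81528724 to 81545190, minus strand), which encodes the close relative G11, had 1670 and 1594 counts, 99.04 CPM untreated (94.3 to 104) and 90.4 CPM treated (86.03 to 94.96). Its log2 ratio of -0.13 (-0.23 to -0.03) was the lowest of the tested alpha genes, and the widened interval of -0.27 to 0.0051 just included 1. Gna11 was therefore lower in the treated library by counting error, whereas Gnaq was not called in either direction. The difference between these 2 ratios was not tested. Gna14 had 11 counts in each library.

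Gna15, the promiscuous alpha subunit of blood cells and some epithelia, was the member with the sharpest contrast of counts: 0 untreated and 6 treated. Against a limit of 3 counts in the untreated library, and with the 6 counts taken as exact, it was at least 1.91-fold higher. The counting interval of its log2 ratio began at 0.17. At 0.340 CPM (0.125 to 0.741) treated it stayed under 1 CPM and was not tested. With no minimum on the level it would have been the 1 member of 35 past the size rule. The share of all genes past that rule with no minimum was not taken, so the call has no background beside it. The 6 counts are 1 library's and have no replicate. Its neighbour on chromosome 10 is Gna11, which lay on the lower side.

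Gna12 and Gna13 encode the alpha subunits that act on exchange factors of small GTPases. Gna13 (chromosome 11, 109362831 to 109401369, plus strand) had 1910 and 1975 counts, 113 and 112 CPM, with a log2 ratio of -0.02 (-0.11 to 0.08). Gna12 had 208 and 221 counts, 12.3 and 12.5 CPM, with a log2 ratio of 0.02 (-0.26 to 0.30). Neither was called, and the excess of Gna13 over Gna12 was about the same in both libraries.

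Per kb of union exon length, the order in untreated cells was Gnai3 (103 CPM per kb), Gnai2 (52.8), Gnas (42.5), Gna11 (24.2), Gnaq (18.1), Gna13 (17.6), Gnai1 (4.45), Gna12 (3.61) and Gnaz (0.328). Gnaq at 17.3 to 19.0 and Gna13 at 16.9 to 18.4 overlapped in their intervals, and so did Gnai1 and Gna12. The Gi family made up 60.2% of the summed alpha level untreated and 61.3% treated, and Gnas 15.9 and 16.0%. The place of Gnas depends on the length used, because the union of its exons spans 11186 bases while its longest transcript has 3947. Divided by the longest transcript, Gnas came first with 30.9% of the alpha level, ahead of Gnai3 with 26.4% and Gnai2 with 23.1%. The Gi family stayed the largest under each of the 4 lengths tried, with 40.4 to 60.2% untreated, and Gnas had 15.9 to 34.9%.

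**Figure D3:**
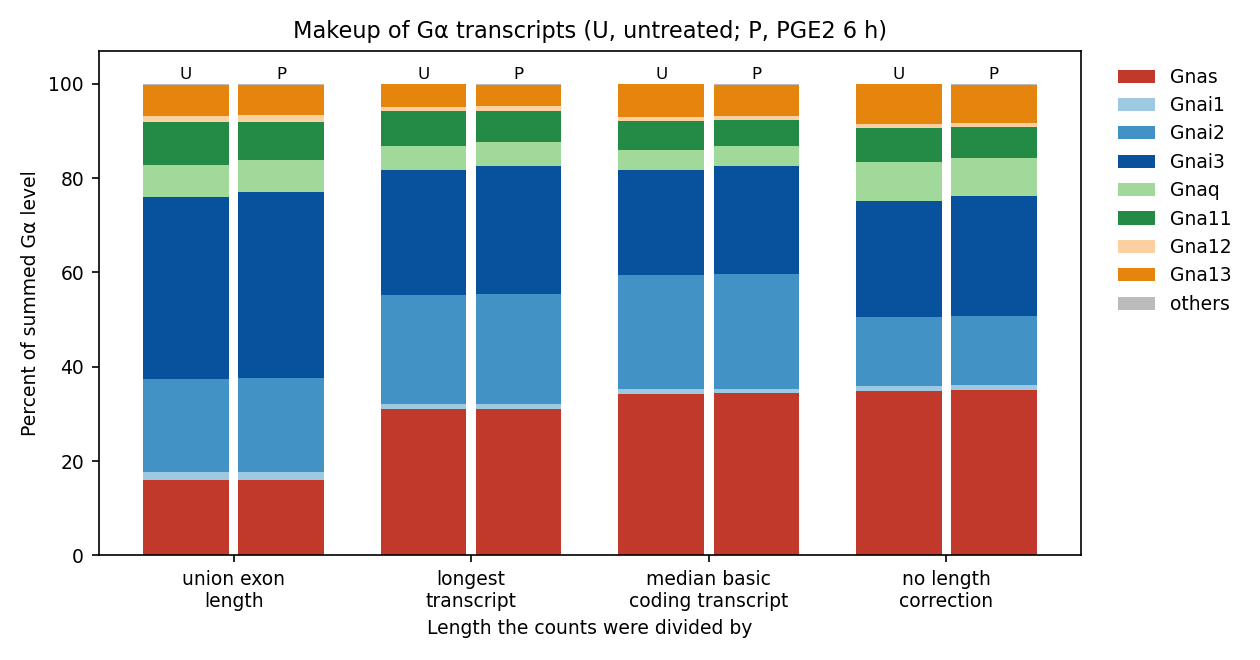
Share of each alpha gene in the summed alpha level (percent, stacked bars) in the untreated (U) and PGE2 (P) library, with CPM divided by 3 kinds of transcript length or by none; Gnaz, Gna14, Gna15 and Gnao1 are pooled as others. Paired bars are nearly alike, while the share of Gnas in untreated cells moves from 15.9% with the union exon length to 30.9% with the longest transcript.

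Beta subunits form the propeller that holds gamma and binds effectors. Gnb1 (chromosome 4, 155491361 to 155559269, plus strand) was the leading member with 5820 and 6187 counts, 345 CPM untreated (336 to 354) and 351 CPM treated (342 to 360), at a log2 ratio of 0.02 (-0.03 to 0.08). Gnb2 had 1314 and 1450 counts and a log2 ratio of 0.08 (-0.03 to 0.19). Gnb4 had 549 and 607 counts and a log2 ratio of 0.08 (-0.09 to 0.25). All 3 lay slightly above 1 with intervals that included it. Gnb5, the divergent beta subunit that partners RGS proteins of the R7 group, had 190 and 175 counts and a log2 ratio of -0.18 (-0.49 to 0.12). Gnb3, known from cone photoreceptors, had 0 and 1 count. Per kb Gnb1 held 73.5% of the beta level untreated and 73.2% treated, and Gnb2 held 20.8 and 21.5%.

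Gamma subunits anchor the dimer to the membrane through a prenyl group, and 3 of them, Gng10, Gng5 and Gng12, carried nearly all gamma transcripts. Gng5 (chromosome 3, 146499807 to 146505572, plus strand) had 1933 and 2246 counts, 115 CPM untreated and 127 CPM treated, and a log2 ratio of 0.15 (0.06 to 0.24). Gng12 (chromosome 6, 66896397 to 67021350, plus strand) had 2325 and 2267 counts, 138 and 129 CPM, and a log2 ratio of -0.10 (-0.18 to -0.02). Gng10 (chromosome 4, 59035088 to 59041903, plus strand) had 1101 and 1166 counts, 65.3 and 66.1 CPM, and a log2 ratio of 0.02 (-0.10 to 0.14). Gng5 was thus higher, Gng12 lower and Gng10 nearly level in the treated library.

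Of the 4 members whose counting interval excluded 1, only Gng5 kept that with the widened interval, 0.02 to 0.28, as 2.45% of all tested genes did on the higher side. For Gng12 the widened interval was -0.23 to 0.03, and 2.83% of tested genes kept a widened interval below 1. The share of Gng5 in the gamma level per kb was 33.8% untreated and 36.5% treated, that of Gng12 23.8 and 21.6%, and that of Gng10 40.5 and 39.9%. The order per kb depends on the length: by the median length of the basic coding transcripts Gng5 came first with 52.0% untreated. Gng5 has 3 processed pseudogenes that match it at 98.0 to 98.5% over 204 to 207 bases, and the coding model AC170998.1 matches it at 95.2% over 271 bases, none with a row in the table. Gng10 shares 946 bases, 72.0% of its exons, with the overlapping model Gm20503 on the same strand. How reads from such stretches were assigned is not given, so the values of Gng5 and Gng10 are uncertain beyond counting error.

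The remaining gamma genes were scarce. Gng11 had 32 and 37 counts, and Gng7, a striatal subunit, had 20 and 18. Gng2 and Gng4 had 0 counts untreated and 1 treated. No interval of these genes excluded 1.

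Of the 18 RGS genes, 11 had at least 1 count and 9 were tested, where 48.6% of all rows were. The share of all rows with 0 counts in both libraries was not taken. The 7 RGS genes without counts therefore have no background beside them. Rgs1, Rgs13 and Rgs18, known from lymphocytes and platelets, had 0 counts in both libraries, as did Rgs8, Rgs7 and Rgs9, known from neurons or retina, and Rgs16, an inducible member of the R4 group. Rgs3 had 9 and 7 counts and Rgs14 had 1 and 0. These 0 counts carry the same limits as for Pbsn.

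The R12 group, which acts on Gi alpha subunits, was carried by Rgs12 and Rgs10. Rgs12 (chromosome 5, 34949445 to 35039644, plus strand) had 938 and 983 counts, 55.6 CPM untreated (52.1 to 59.3) and 55.8 CPM treated (52.3 to 59.4), at a log2 ratio of 0.0033 (-0.13 to 0.13). Rgs10 had 320 and 356 counts, 19.0 and 20.2 CPM, and a log2 ratio of 0.09 (-0.13 to 0.31). Rgs12 had the most counts of any RGS gene and was the member nearest to a ratio of 1.

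In the R4 group, small RGS proteins that act on Gi and Gq, 3 members were tested and all 3 lay above 1 with intervals that included it. Rgs4 (chromosome 1, 169741477 to 169747642, minus strand) had 351 and 415 counts, 20.8 CPM untreated (18.7 to 23.1) and 23.5 CPM treated (21.3 to 25.9), at a log2 ratio of 0.18 (-0.03 to 0.39). Rgs5, a gene of pericytes, had 81 and 97 counts and a log2 ratio of 0.19 (-0.24 to 0.64). Rgs2, which acts mainly on Gq, had 32 and 41 counts and a log2 ratio of 0.29 (-0.41 to 1.007). Summed over its 9 members the group had 473 and 560 counts, a log2 ratio of 0.18 (0.00014 to 0.36), so the sum barely excluded 1. Under totals without Rn45s, Lars2 and Malat1 it was 0.17 (-0.0087 to 0.35) and included 1.

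The RZ group was represented by Rgs19, which acts on Gi, with 269 and 294 counts and a log2 ratio of 0.06 (-0.18 to 0.31). Rgs17 had 41 and 34 counts, -0.33 (-1.03 to 0.36). Rgs20 had the highest log2 ratio of the tested members, 0.65 (-0.19 to 1.54), from 20 and 33 counts, and its interval included 1. It overlaps Atp6v1h on the opposite strand over 127 bases. Atp6v1h had 3523 and 3620 counts, and the strand setting of the counting is not given, so its part in the counts of Rgs20 was not tested. Rgs11 of the R7 group had 51 and 50 counts, -0.09 (-0.69 to 0.50), and overlaps Arhgdig (54 and 59 counts) over 138 bases on the opposite strand.

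Per kb of union exon length Rgs10 led the RGS genes in untreated cells with 11.1 CPM per kb (9.91 to 12.4). Rgs19 (6.32 to 8.06), Rgs4 (6.03 to 7.46) and Rgs12 (6.14 to 6.99) followed with intervals that overlapped each other. Rgs5 was at 1.06 CPM per kb and the others below it. Rgs10 also led by the longest transcript and by the median coding transcript, whereas Rgs12 led in CPM without length.

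**Figure D4:**
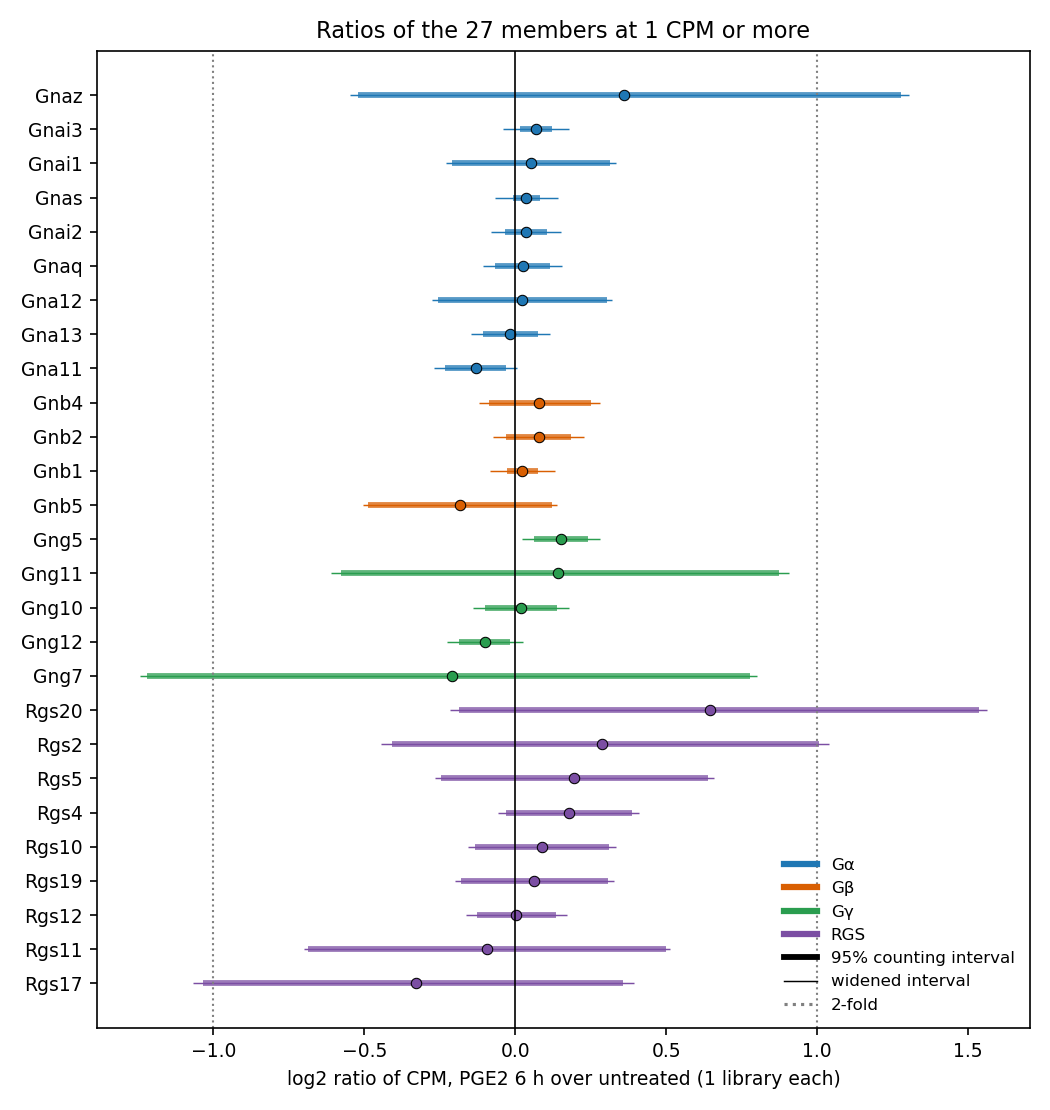
Log2 ratio of CPM (PGE2 6 h over untreated, 1 library each) for the 27 tested members by class; points are ratios, thick bars 95% counting intervals and thin bars the intervals widened by the spread of genes of like counts, with dotted lines at 2-fold. Gng5 is the 1 member whose thin bar stays clear of 0, and no point reaches a dotted line.

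Upstream sequences of RGS and subunit genes were searched for the cAMP response element, the DNA site of CREB, since cAMP is the messenger of Gs. The full element TGACGTCA, read on both strands, was in none of the 44 RefSeq promoter entries of 32 matched members within 250 bases before the start site, and in 1.55% of all 32851 promoter entries (GRCm38.p6). Its core TGACG or the complement CGTCA, which the full element also contains, was in 10 of the 44 entries, from 8 members, and in 17.8% of all entries. Of the 6 tested members with a core, the 5 without an annotated exon of the gene in the window (all but Gnas) are shown with the core nearest to the start site in capitals, 5′ to 3′ on the strand of the gene.
Rgs2, chr1:144004187-144004241, minus strand: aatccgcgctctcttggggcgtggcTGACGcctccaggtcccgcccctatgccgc
Rgs4, chr1:169747754-169747808, minus strand: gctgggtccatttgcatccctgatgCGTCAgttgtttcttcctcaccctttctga
Rgs12, chr5:34998971-34999025, plus strand: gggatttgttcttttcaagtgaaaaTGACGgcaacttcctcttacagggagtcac
Gnb1, chr4:155491305-155491359, plus strand: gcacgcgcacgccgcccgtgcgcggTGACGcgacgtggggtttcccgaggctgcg
Gng7, chr10:81001445-81001499, minus strand: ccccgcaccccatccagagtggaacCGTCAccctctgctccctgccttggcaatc
The cores begin 67, 141, 82, 31 and 109 bases before the start site of the RefSeq entry. For Rgs12 and Gng7 that start site lies inside the gene as GENCODE draws it. None of the 5 had an interval that excluded 1, and the 4 members that did, Gnai3, Gng5, Gna11 and Gng12, each had an entry in the table and no core in it. A match of 5 letters is a description and not a binding site.

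Summed by class, the log2 ratio was 0.03 (0.0026 to 0.05) for alpha, 0.03 (-0.01 to 0.08) for beta, 0.02 (-0.03 to 0.07) for gamma and 0.06 (-0.02 to 0.15) for RGS genes. The alpha sum of 22985 and 24514 counts excluded 1 by a small margin, and the other sums included it. The alpha interval included 1 without Gnas (-0.0079 to 0.06) and under totals without the abundant rows Rn45s, Lars2 and Malat1 (-0.0063 to 0.05). Of single genes with 10000 counts or more, 33.4% had an interval above 1. Median log2 ratios of the tested members were 0.04 for alpha, 0.05 for beta, 0.02 for gamma and 0.09 for RGS genes. Within alpha, the Gi family had a summed ratio of 0.06 (0.02 to 0.10), Gnas 0.04, the Gq family -0.04 (-0.11 to 0.02) and Gna12 with Gna13 -0.01 (-0.10 to 0.07). In the gamma class the sum is near 0 because Gng5 and Gng12 lay on opposite sides: without Gng12, the member with most counts, it was 0.10 (0.03 to 0.17), and without Gng5 it was -0.06 (-0.13 to 0.0089).

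Other genes of the pathway were taken from 8 lists with 64 symbols, of which 63 had a row and 39 were tested. An interval above 1 was found for 2 of the 39 and below 1 for 3, against 6.61% and 5.65% of all tested genes, and none passed the size rule. Of the 10 other subunit genes 3 were tested, Gnal (170 and 172 counts), a Gs relative of olfactory neurons, Gnb1l (94 and 78), a beta-like gene, and Gng3 (17 and 13), and no interval excluded 1. Of other genes with an RGS domain or that bind RGS proteins, 8 of 9 had a row and 5 were tested, none called. The most abundant per kb were Snx13, an endosomal protein (190.3 CPM untreated), Axin1 of the Wnt pathway (43.0) and Akap10, a kinase anchor (54.9).

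Of 8 exchange factors and other alpha binding proteins, 6 were tested and none was called, with Ccdc88a (135.7 CPM untreated), Ric8b (51.0) and Gpsm2 (37.1) leading per kb. Ric8 and Ric8b encode chaperones of nascent alpha subunits, and their log2 ratios were -0.0085 and -0.0035. The list of folding and beta-gamma binding proteins had 5 tested members of 6. Pdcl, a cochaperone in beta-gamma assembly, had 1474 and 1678 counts, a log2 ratio of 0.12 (0.02 to 0.22), and Cct5, a chaperonin subunit, 9821 and 10610 (0.05, 0.01 to 0.09), both above 1. Gnb2l1, the beta-like scaffold RACK1, had 18779 and 19222 counts with an interval below 1 (-0.03, -0.06 to -0.0015), which included 1 once widened (-0.13 to 0.07) and under 3 of the 4 other scalings. The widened intervals of Pdcl (-0.02 to 0.26) and Cct5 (-0.06 to 0.15) included 1 as well. Cct2, another chaperonin subunit, was at 844 CPM untreated and -0.01.

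Of 9 receptor kinases, arrestins and arrestin relatives, 7 were tested and none called. Adrbk1, which encodes GRK2, the kinase that beta-gamma brings to the membrane, had 1600 and 1740 counts and a log2 ratio of 0.06 (-0.04 to 0.16). Grk6 had 1275 and 1437 (0.11, -0.0015 to 0.22). Arrdc3, an arrestin relative, had 1879 and 1883 (-0.06, -0.15 to 0.03).

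Among effectors, 6 of 7 Gq, 5 of 5 G12 and G13 and 2 of 10 beta-gamma list members were tested, with 0, 0 and 0 intervals above 1 and 1, 0 and 1 below. Arhgef25, an exchange factor that Gq activates, had 187 and 152 counts, a log2 ratio of -0.36 (-0.68 to -0.05). Prex2, a Rac exchange factor bound by beta-gamma, had 255 and 208 counts, -0.36 (-0.63 to -0.09). Both stayed below 1 with the widened interval, as 2.83% of all tested genes did. At the 99% level of the counting interval only Prex2 stayed below 1. Plcb3, the most abundant phospholipase C-beta gene per kb, had 1686 and 1854 (0.07, -0.02 to 0.17), and Plcb2 had none. Trio was at 120.1 CPM and Plcb4 at 27.8 CPM untreated. Rhoa, Arhgef12 and Akap13 led the G12 and G13 list per kb at 497, 239.8 and 114 CPM untreated. Pik3cb, a beta-gamma responsive kinase subunit, was at 66.0 CPM, while the potassium channel genes Kcnj3, Kcnj5, Kcnj6 and Kcnj9 had 0 counts in both libraries. Median log2 ratios of the tested genes of the 8 lists lay between -0.33 (other subunits) and 0.03 (Gq effectors). The median of the other subunits rests on 3 tested genes and is the ratio of the beta-like Gnb1l (-0.79 to 0.12).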

How the data were processed

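The authors deposited raw counts of reads for each gene symbol, with 1 column per library named by the sample's title. Per the submitters' processing notes, Trimmomatic, TopHat2, Bowtie, HTSeq and the build mm10 were used. Versions, annotation and strand setting were not given in the sources used here. Counts were scaled by edgeR 4.0.16 (TMM). Log2 ratios have a prior of 0.5 counts and 95% Clopper-Pearson intervals, and levels have exact Poisson intervals. Intervals and the floor of 3 counts cover counting error only. At this depth 1 CPM was 16.9 counts untreated and 17.6 treated. The widened interval adds the robust spread of log2 ratios beyond counting error of genes with like counts. Gene models are from GENCODE M21 on GRCm38, the assembly of mm10, and may differ from the authors' annotation. Copies were sought with blastn 2.17.0 at 95% identity over at least 200 bases. The interval method was run on simulated counts with counting error only, which cannot show how it does with the spread beyond that error. The members, lists and settings were chosen with earlier results of these data known. Every member is described, and from the other lists the genes whose interval excludes 1 and up to 3 of the highest level per kb. A few others (Ric8, Plcb2, the Kcnj genes, Gnal, Gnb1l, Gng3) were named after their values were seen. The values of 1 marker gene are not reported here. Alternatives were other scalings, priors, minimums, folds, interval levels and lengths.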

Additional observations from a re-analysis of the deposited data

How the results depend on the processing

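With 1 library per group no replicate could be left out. No paired analysis was possible because each group holds 1 library. The 2 members with an interval above 1 became 1 with the widened interval, and the 2 below 1 became 1 at the 99% level and 0 with the widened interval. With no minimum 1 member, Gna15, passed the size rule in place of 0, and the share of all genes at that setting was not taken. Over the other lists, the 2 intervals above 1 became 3 with total counts, DESeq2 or upper quartile. They became 1 with totals without Rn45s, Lars2 and Malat1 and 0 with the 99% or the widened interval. The 3 below 1 became 1 at 99%, Prex2, and 2 with the widened interval, total counts, DESeq2 or upper quartile. In each setting that left 2, Gnb2l1 lost its call. The alpha sum was 0.0197 (-0.0063 to 0.05) under totals without Rn45s, Lars2 and Malat1 and 0.0244 (-0.0079 to 0.06) without Gnas, including 1 in each. The gamma sum was 0.104 without Gng12 and -0.06 without Gng5 (chosen after seeing the data). Of 135 member ratios under other scalings or a prior of 5 counts, 133 kept their call and 2 newly excluded 1, both of Gnas (0.04, from total counts and upper quartile). Of the 135, the sign turned in 1, the uncalled ratio of Rgs12, which was -0.0056 when Rn45s, Lars2 and Malat1 were left out of the totals. With the longest transcript, the median basic coding length (chosen after seeing the data) and no length, in that order, the untreated share of its class was 26.4, 22.2 and 24.6% for Gnai3, 30.9, 34.3 and 34.9% for Gnas and 40.5, 38.8 and 15.1% for Rgs10. Gnb1 was at 67.6 and 60.6% with the first 2 of these lengths, and Gng10 at 14.7% with the median length and 20.3% with none. The cause of the changes in calls was not tested.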
